A study of Aspergillus aculeatus with 24 samples.

Results

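Among the gene IDs of Aspergillus aculeatus with a mean deposited value of at least 500 over 24 RNA libraries, 200 were chosen by the smallest spread of their log2 values over those libraries and are called the steady IDs here. They are 200 of 5840 IDs that met the level rule and of 8615 IDs in all, and spread was measured as the standard deviation (SD) of log2(value). Because every library entered that choice, the levels and differences of the steady IDs are a description with no test. RNA came from mycelium grown aerobically at 30 °C of the strains BCC56535, HUT2365 and BCC199, each in a wheat bran-soybean medium and in a glucose medium, harvested after 144 h (day 6) or 72 h (day 3). These 12 combinations were sequenced as 2 libraries each, marked as biological replicates A and B, and the labels do not say whether these were separate cultures, so spreads and p-values cover these libraries only and may be technical. The series text speaks of strains that differ in plant biomass breakdown and of control and cellulase-inducing cultures without assigning the media to them, and glucose serves here as the control. No genotype is given beyond the strain name.

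Aspergillus aculeatus, a filamentous fungus, releases enzymes that open plant cell walls. In Aspergillus species many of those enzyme genes are held down by glucose and switched on by plant polymers, while genes for basic upkeep, such as those of the cytoskeleton, translation and protein turnover, are commonly chosen as reference genes for relative measurements. Scaling by median ratios also takes its factor for a library from features whose ratios lie in the middle, so features of small spread bear on how all others are read. The deposited IDs carry no gene name. None of the 8615 IDs, and so 0 of the 200 steady IDs, matched the 11152 genes of the RefSeq table for assembly Aspac1, and no textbook reference gene could be looked up. Roles, sequences and gene lengths are therefore not given, and levels of different IDs are not compared as expression. The label mycelium could not be checked against marker genes for the same reason. In bulk mycelium, a change in the share of a kind of cell and a change in RNA per cell cannot be told apart.

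Values are normalized reads plus a constant of 1. The libraries held between 19248977 and 30003709 reads, and their scaling factors ran from 0.666 to 1.26. Between 2.87% and 3.57% of a library's reads fell to the steady IDs, with a median of 3.22%. No steady ID fell below 290 reads in any library, so counting error was small beside the other spreads. Its SD on the log2 scale had a median of 0.0304 over the 200 IDs.

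The SD of log2(value) of the steady IDs ran from 0.156 to 0.2846, with a median of 0.259, while the median of the other 5640 IDs of sufficient level was 0.715. In linear terms, the highest library of a steady ID stood at a median of 1.96 times its lowest, against 5.98 times for the other IDs. That ratio was below 2 for 111 of the 200 steady IDs and below 1.5 for 1, acu03606_1. No steady ID had a library more than 1 log2 unit from its own mean, and the farthest library of an ID lay between 0.307 and 0.885 away. The limit cut through a dense stretch of IDs. Just inside it lay acu03260_1 with an SD of 0.2845 and acu00939_1 with 0.2846, and just outside acu04220_1 with 0.2847 and acu03994_1 with 0.2851. Within 0.01 of the limit there were 45 steady IDs below it and 42 other IDs above it, and 15 steady IDs had an SD under 0.2.

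The steady IDs were spread over the range of levels, as the plot of level against spread shows. Their mean values ran from 511 to 39045, with a median of 2339 against 1918 for the other IDs, and 122 of 200 lay at or above the median of all IDs of sufficient level. They made up 1.82% of the IDs with means from 500 to 1000, 3.42% from 1000 to 2000, 4.65% from 2000 to 4000, 4.46% from 4000 to 8000 and 3.04% from 8000 upwards. The share was lowest in the lowest of these level classes.

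**Figure D1:**
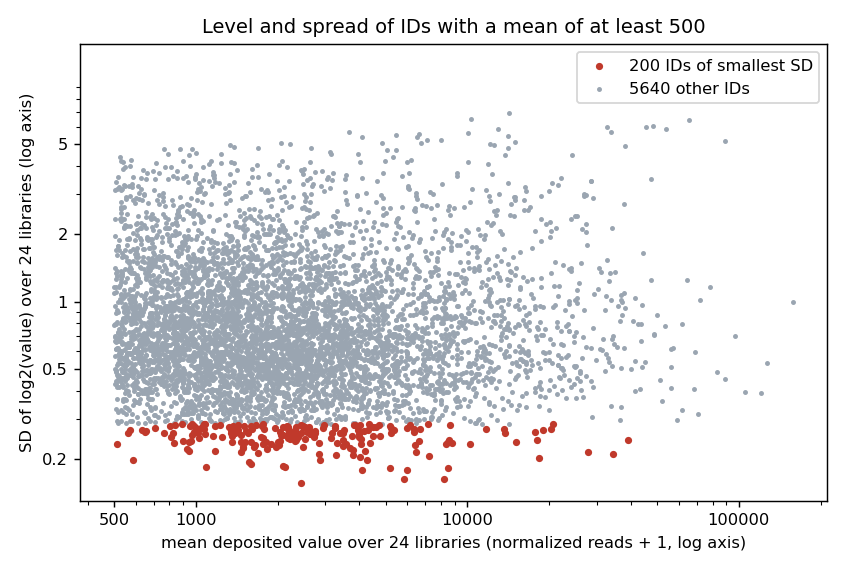
Each point is an ID with a mean of at least 500; the horizontal log axis gives its mean deposited value in normalized reads plus 1 and the vertical log axis the SD of log2(value) over 24 libraries. The 200 steady IDs (red) form the lower edge, from 0.156 to 0.2846, at means from 511 to 39045, and the 5640 other IDs (grey) lie above them.

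The smallest SD belonged to acu04287_1, at 0.156. Its deposited values had a lowest, median and highest of 1874, 2380.1 and 2925 in the 12 wheat bran-soybean libraries, against 1950.3, 2447 and 2791 in the 12 glucose libraries. The media overlapped over nearly the whole range, and both the lowest and the highest value came from BCC56535 in wheat bran-soybean, which held 2925 and 2858 on day 6 and 2206 and 1874 on day 3. By strain, the lowest, median and highest were 1874, 2236 and 2925 in BCC56535, 2339, 2472 and 2701 in HUT2365, and 2261, 2400.2 and 2791 in BCC199. The 8 libraries of HUT2365 and the 8 of BCC199 thus lay inside the range of BCC56535.

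For acu03606_1, the ID with the smallest ratio of highest to lowest library, values were 6597, 7602 and 8968 (lowest, median, highest) in wheat bran-soybean and 6837, 8686 and 9675 in glucose. The media overlapped when all strains were pooled. In BCC199 they parted, with 6914 to 7525 in the 4 wheat bran-soybean libraries and 8579 to 9675 in the 4 glucose libraries. acu07004_1 had 4833, 5816 and 7849 in wheat bran-soybean and 4674, 5782 and 6662 in glucose. Its highest value was HUT2365 in wheat bran-soybean on day 3, replicate B, whose replicate A stood at 5796. In BCC199 the media parted again, with 4833 to 5428 in wheat bran-soybean against 5546 to 6283 in glucose.

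acu02065_1 had 4892, 6293 and 8062 in BCC56535, 5462, 6027 and 6745 in HUT2365, and 5207, 5341 and 5693 in BCC199. Its 2 highest libraries were those of BCC56535 in wheat bran-soybean on day 6, at 7632 and 8062, and BCC199 was the narrowest strain. acu04890_1 had 2887, 4148 and 4856 in BCC56535, 3433, 3819 and 4527 in HUT2365, and 3962, 4390.1 and 4713 in BCC199. It was highest in BCC56535 in wheat bran-soybean on day 6, at 4856 and 4782, and lowest in the same strain and medium on day 3, at 3521 and 2887. For 3 of these 5 IDs, acu04287_1, acu02065_1 and acu04890_1, the highest library was BCC56535 in wheat bran-soybean on day 6.

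**Figure D2:**
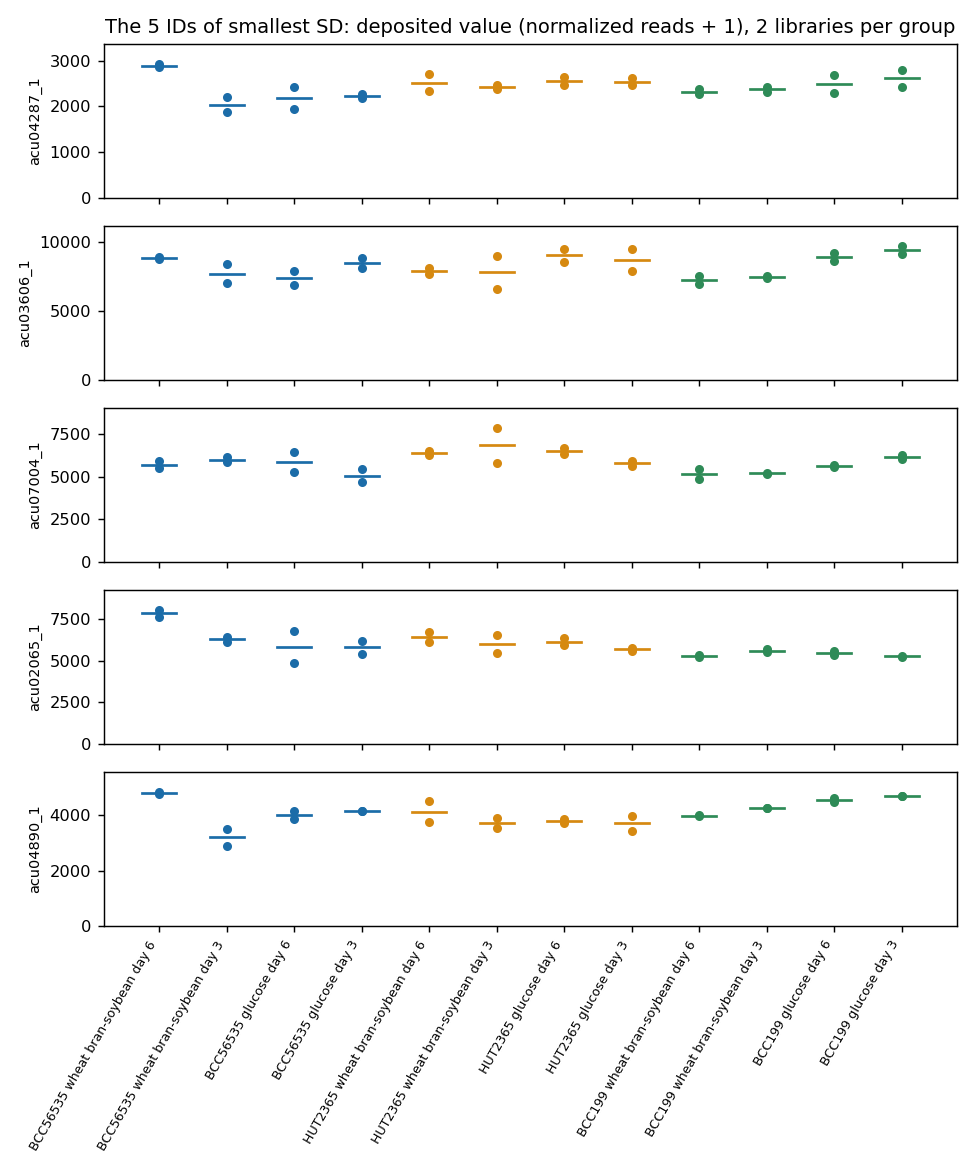
Each panel is 1 of the 5 IDs of smallest SD, with the deposited value (normalized reads plus 1, axis from 0) in each of the 12 groups; points are the 2 libraries, bars their mean, and colours the strains BCC56535 (blue), HUT2365 (orange) and BCC199 (green). The values of acu04287_1 stay between 1874 and 2925, and its highest and lowest points are BCC56535 in wheat bran-soybean on day 6 and day 3.

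These 5 IDs moved partly together and partly apart. A common measure, the mean of their log2 values set against its own mean over all libraries, ran from -0.20 in BCC56535 in wheat bran-soybean on day 3, replicate B, to 0.21 in the same strain and medium on day 6, replicate A. The ratio of one of the IDs to another, which no library factor can alter, had an SD of its log2 of 0.164 to 0.272 over the 10 pairs. The ratio of acu04287_1 to acu04890_1 stayed between 0.497 and 0.762, the pair with the smallest SD, and that of acu07004_1 to acu04890_1 ran between 1.12 and 2.22, the pair with the largest.

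At the ends of the level range stood acu04901_1 and acu00407_2, with means of 39045 and 34508, and acu06963_1 and acu04631_1, with means of 511 and 561. acu04901_1 had a lowest, median and highest of 25741, 36058 and 50901 in BCC56535, 38015, 45251 and 47086 in HUT2365, and 31521, 37823 and 39832 in BCC199. HUT2365 overlapped both other strains, and BCC56535 held both extremes, in glucose on day 6 and on day 3. For acu06963_1 the wheat bran-soybean libraries had 341, 471 and 570.4, and the glucose libraries 412, 558 and 719. These ranges overlapped, and in HUT2365 the ranges were 341 to 449 in wheat bran-soybean and 448 to 604 in glucose, so that the ranges barely met.

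The 200 IDs did not spread evenly over the libraries. The farthest library of an ID was one of BCC56535 for 113 IDs, of HUT2365 for 47 and of BCC199 for 40. Single libraries that came up most often were BCC56535 in wheat bran-soybean on day 3, replicate B, for 30 IDs and BCC56535 in glucose on day 6, replicate A, for 25. In the first of these, 66 of 200 steady IDs lay above their own mean and the median distance was -0.14 log2 units. In the second the median was 0.08, and 30 IDs lay more than 0.5 away. HUT2365 in glucose on day 6, replicate A, had 1 such ID. Within a strain, the median SD of the steady IDs was 0.253 in BCC56535, 0.199 in HUT2365 and 0.180 in BCC199, where the other IDs had 0.545, 0.461 and 0.435. BCC56535 was the widest strain for both sets of IDs.

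**Figure D3:**
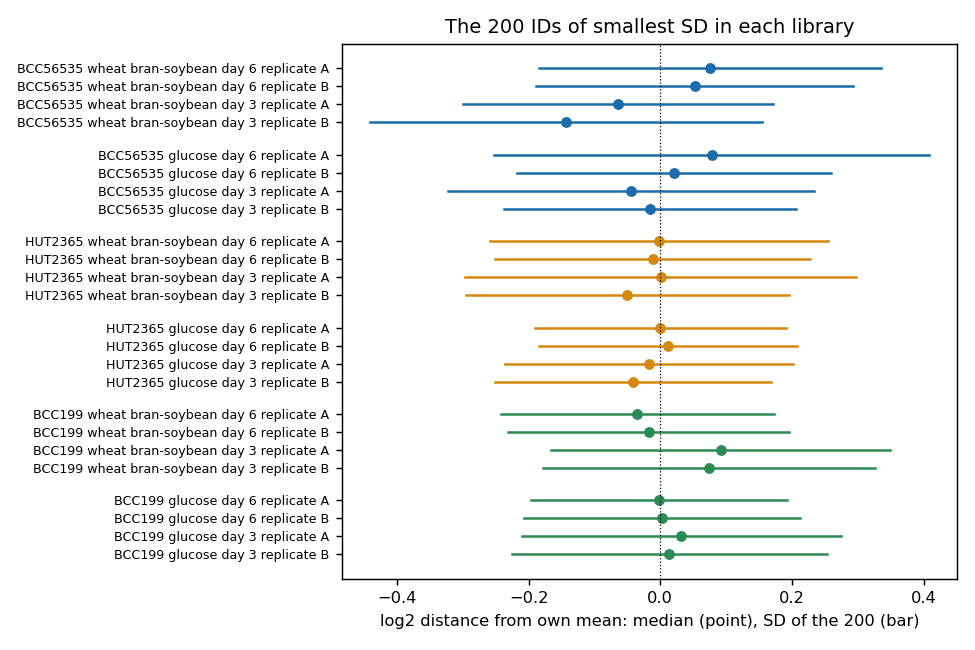
For each of the 24 libraries the point gives the median over the 200 steady IDs of the log2 distance from the ID's own mean over all libraries, and the bar reaches 1 SD of those 200 distances to each side; colours mark the strains. Medians run from -0.14 in BCC56535 in wheat bran-soybean on day 3, replicate B, to 0.09 in BCC199 in wheat bran-soybean on day 3, replicate A.

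The summed level, which weighs IDs of high value most, differed most between the libraries of BCC56535. It need not follow most of the IDs. HUT2365 in wheat bran-soybean on day 3, replicate B, had the highest sum of its strain, 835779, with 88 of 200 IDs above their own mean. In wheat bran-soybean the 200 steady IDs summed to 846277 and 856008 normalized reads on day 6, against 768327 and 730780.0 on day 3, with no overlap. In glucose they summed to 900405 and 798132 on day 6, against 809763 and 779376 on day 3, and the days overlapped. Over all libraries the highest sum was 1.23 times the lowest, and within a strain the ratio was 1.23 in BCC56535, 1.10 in HUT2365 and 1.08 in BCC199.

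Replicates took a larger part of the spread in the steady IDs than in the others, as the plot of the variance shows. The IDs were chosen for a small total of this same variance, so its division is a description and nothing is read from the contrast. Of the variance of log2(value), replicates held 20.2% in the steady IDs and 4.32% in the other 5640 IDs. Strain held 23.7% against 40.8%, and medium 12.4% against 30.6%. Day held 4.83% against 2.67%, and all terms with day together 26.1% against 10.6%. The strain by medium term held 17.6% against 13.8%. In absolute size these 4 sources were smaller in the steady IDs. The variance of the other IDs was 42.9 times that of the steady IDs for strain, 61.7 times for medium, 13.8 times for day and 5.34 times for replicates. The median SD between replicates was 0.152 in the steady IDs and 0.256 in the others, and that of the 12 group means was 0.233 and 0.704. In 17 steady IDs the replicates spread more than the group means did.

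**Figure D4:**
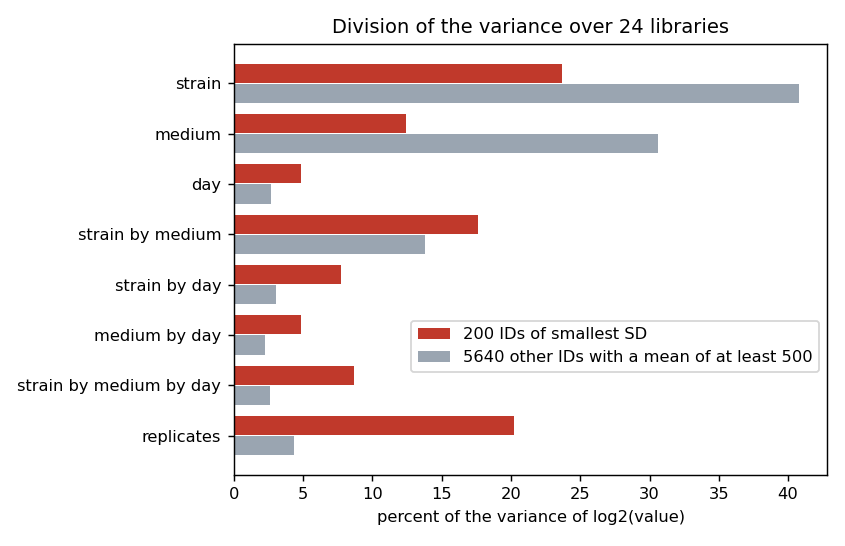
Bars give the percent of the variance of log2(value) over 24 libraries held by each term of the design, summed over the 200 steady IDs (red, upper bar) and over the 5640 other IDs with a mean of at least 500 (grey, lower bar). Replicates reach 20.2% in the steady IDs and 4.32% in the others, and strain and medium have the shorter bars in the steady IDs. The steady IDs were chosen on the total of this variance.

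The term that held most of an ID's own variance differed among the 200. Strain led for 69 IDs, replicates for 43, strain by medium for 40 and medium for 24. The term of all 3 factors led for 11, strain by day for 7, medium by day for 4 and day for 2. The means of the 3 strains lay within 0.1 log2 units of each other for 21 steady IDs, those of the media for 71 and those of the days for 127. Of the other 5640 IDs, 0.851% met this limit for the strains, 12.1% for the media and 32.9% for the days. A choice by small SD over all libraries also holds these means close together, so the contrast is a description and nothing is read from it. A single ID, acu07339_1, met all 3 limits at once, and none of the other 5640 did. It is named for that, after its values were seen. Its means were 3229 in BCC56535, 3291 in HUT2365 and 3426 in BCC199, with 3218 in wheat bran-soybean against 3413 in glucose, and 3386 on day 6 against 3245 on day 3. Yet the media did not overlap within either of 2 strains. HUT2365 had 2223 to 3112 in wheat bran-soybean and 3693 to 4052 in glucose, while BCC199 had 3497 to 3909.7 in wheat bran-soybean and 2869.8 to 3309.8 in glucose.

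The wheat bran-soybean medium was set against glucose as a mean over strains and days, on log2(value + 1) with limma and Benjamini-Hochberg adjustment at 0.05. Among the steady IDs 84 passed, 39 higher and 45 lower in wheat bran-soybean, where 69.1% of all 8509 IDs tested passed, 34% higher and 35% lower. The choice of the IDs used this contrast, so nothing is read from the counts. The differences of the steady IDs ran from -0.40 to 0.36, with a median size of 0.14 against 0.48 over all IDs tested. The libraries of the media overlapped for all 200 steady IDs, where 2.91% of all IDs did not overlap.

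The largest positive differences were those of acu01960_1 and acu05169_1. acu01960_1 had a lowest, median and highest of 1275, 1471 and 1735 in wheat bran-soybean and 902, 1150.3 and 1464 in glucose, a log2 difference of 0.36 (SE 0.06). Within each strain its wheat bran-soybean libraries lay above its glucose libraries, for instance 1623 to 1735 against 1376 to 1464 in BCC199. acu05169_1 had 824, 1189 and 1632 against 773, 937 and 1127 in glucose, a difference of 0.34 (SE 0.09). In HUT2365 its 4 wheat bran-soybean libraries, 824 to 1333, enclosed the glucose range of 864 to 1127.

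The largest negative differences were those of acu06805_1 and acu07954_1. acu06805_1 had 1466, 1937 and 2309 in wheat bran-soybean and 2271, 2528 and 2772 in glucose, a difference of -0.40 (SE 0.07). A single wheat bran-soybean library, HUT2365 on day 3, replicate A, reached into the glucose range, with 2309 against 2271 in the lowest glucose library. acu07954_1 had 1452, 1709.7 and 2342 in wheat bran-soybean and 1897, 2456 and 2712 in glucose, a difference of -0.40 (SE 0.07). In BCC56535 its media did not overlap, at 1611 to 1750.1 against 2002 to 2648, while in BCC199 they did.

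The strains were compared in pairs as means over media and days. For BCC56535 against BCC199, 77 steady IDs passed, 38 higher and 39 lower in BCC56535, where 73.8% of all IDs passed, 37.3% higher and 36.5% lower. For HUT2365 against BCC199, 79 passed, 32 higher and 47 lower in HUT2365, where 74.5% of all IDs passed, 38.1% higher and 36.4% lower. After quantile normalization this split turned to 46 higher and 40 lower. For BCC56535 against HUT2365, 61 passed, 36 higher and 25 lower in BCC56535, where 70.8% of all IDs passed, 35.9% higher and 34.9% lower. Quantile normalization turned this split to 27 higher and 48 lower. Each pair shares a strain with the others, so the 3 counts are not independent. The median size of the difference was 0.15, 0.16 and 0.13 log2 units in the steady IDs and 0.70, 0.70 and 0.63 over all IDs tested, in that order of pairs.

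Few steady IDs had strains whose 8 libraries did not overlap, and these were named after their values were seen. They were acu03787_1 and acu06050_1 for BCC56535 against BCC199, where 16.8% of all IDs did not overlap. For HUT2365 against BCC199 they were acu04969_1, acu06050_1, acu06199_1, acu08073_1 and acu02788_1, where the share over all IDs was 21.2%. For BCC56535 against HUT2365 they were acu06249_1, acu02748_1 and acu02788_1, where it was 14.8%.

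acu02788_1 had the largest positive difference of HUT2365 from BCC199. Its lowest, median and highest were 2083, 2555 and 2994 in BCC56535, 3014, 3343 and 3582 in HUT2365, and 2005, 2309.6 and 2693 in BCC199, a log2 difference of HUT2365 from BCC199 of 0.51 (SE 0.07). All 8 libraries of HUT2365 lay above all 16 of the other strains. acu04965_1 had the largest negative one, with 3294, 3556 and 4904 in HUT2365 and 4510.3, 5464 and 5968 in BCC199, a difference of -0.51 (SE 0.08). These ranges overlapped through a single library, HUT2365 in wheat bran-soybean on day 6, replicate B, at 4904.

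For BCC56535 against BCC199, acu02839_1 stood highest, with 3857, 4707 and 5239.9 in BCC56535 and 2615, 3400.1 and 4025 in BCC199, a difference of 0.51 (SE 0.07). The overlap came from BCC56535 in glucose on day 6, replicate B, and from BCC199 in glucose on day 3, replicate A. acu05301_1 stood lowest, with 1587, 2058 and 2587 in BCC56535 and 2359.9, 2882 and 3392 in BCC199, a difference of -0.48 (SE 0.08). For BCC56535 against HUT2365, acu02748_1 had 943, 1123 and 1429.5 in BCC56535 and 701, 825 and 935 in HUT2365, a difference of 0.48 (SE 0.08), with no overlap. acu01544_1 had 2205, 3039 and 3416 in BCC56535 and 3241, 3669 and 5112 in HUT2365, a difference of -0.40 (SE 0.08). Its 2 highest libraries were HUT2365 in wheat bran-soybean on day 3, at 4990.3 and 5112.

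The order of the 3 strain means was not shared among the steady IDs. The 6 possible orders held between 25 and 39 IDs each. The order BCC199, HUT2365, BCC56535 from high to low was the most frequent, and HUT2365, BCC199, BCC56535 the least.

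Between day 6 and day 3, as a mean over strains and media, 12 steady IDs passed, 11 higher and 1 lower on day 6, where 23.7% of all IDs tested passed, 11.2% higher and 12.5% lower. The median size of the difference was 0.08 in the steady IDs and 0.18 over all IDs, and for no steady ID, as for 0% of all IDs, were the days free of overlap. The count moved when single libraries were left out, and so did the count over all IDs. Over all IDs it was 2018 in the full fit and 1661 to 2359 without 1 library. The count of steady IDs was 22 without BCC56535 in glucose on day 6, replicate B. Without HUT2365 in wheat bran-soybean on day 3, replicate B, it was 20. It was 6 without BCC56535 in wheat bran-soybean on day 3, replicate B. Leaving out a BCC199 glucose library gave 13 and 12 (day 3, replicates A and B) and 5 and 6 (day 6, replicates A and B). Leaving out a BCC199 wheat bran-soybean library gave 4 and 5 (day 3, replicates A and B) and 7 and 5 (day 6, replicates A and B). Leaving out a HUT2365 glucose library gave 5 and 6 (day 3, replicates A and B) and 6 for either replicate of day 6. Quantile normalization gave 22, all higher on day 6, where 2101 of all IDs passed.

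The largest positive difference between the days was that of acu07943_1, with 10712, 12822 and 15961 on day 6 and 7276, 10749 and 14124 on day 3, a log2 difference of 0.26 (SE 0.08). The days overlapped, and in BCC56535 in wheat bran-soybean they were far apart, at 14388 and 14328 on day 6 against 8146 and 7276 on day 3. acu03205_1 had the largest negative one, with 2480, 2937 and 3577 on day 6 and 2644, 3446 and 5441 on day 3, a difference of -0.22 (SE 0.08). Its highest value, 5441, was a single library, BCC56535 in glucose on day 3, replicate A, whose replicate B stood at 3188.

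Each single medium difference rests on 2 against 2 libraries, with a median SE of 0.173 against 0.0707 for the mean over strains and days. How far the larger single values come from this was not tested. Taken strain by strain and day by day, the medium differences of the steady IDs lay between -1.10 and 0.82 in BCC56535 on day 3 and between -0.87 and 0.85 on day 6. In HUT2365 they lay between -0.81 and 0.82 on day 3 and between -0.74 and 0.66 on day 6. In BCC199 the limits were -0.82 and 0.70 on day 3 and -0.73 and 0.69 on day 6. Their medians lay between -0.06 and 0.07. Between 16 and 34 of the 200 IDs went beyond 0.5 in a given strain and day. The sign was the same in all 6 comparisons for 18 IDs, 10 above 0 and 8 below.

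Within a strain, the 4 wheat bran-soybean libraries lay all above the 4 glucose libraries for 13 steady IDs in BCC56535, 31 in HUT2365 and 34 in BCC199, where 13.3%, 26.3% and 24.5% of all IDs tested did so. They lay all below for 16, 32 and 34 steady IDs in the same order of strains, where 14%, 26% and 26.2% of all IDs did so. The moderated F test of the medium by strain interaction passed 78 steady IDs, where 73.4% of all IDs passed.

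For 13 steady IDs the media parted in opposite directions in 2 strains, with no overlap in either, where 10.6% of all IDs did so. All but 2 of these paired HUT2365 with BCC199, as in acu07339_1 above. acu06731_1 and acu05187_1 are shown as further cases, picked after their values were seen. acu06731_1 had 1511 to 2109 in wheat bran-soybean against 2887 to 3079 in glucose in HUT2365, and 2795 to 3048 against 1995 to 2298 in BCC199. acu05187_1 parted in all 3 strains. It had 5144 to 5542 in wheat bran-soybean against 2917 to 4679 in glucose in BCC56535 and 4215 to 5286 against 3292 to 3860 in BCC199. In HUT2365 it had 3168 to 4089.8 in wheat bran-soybean against 4455 to 4901 in glucose.

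The largest distances of a single library from its ID's mean were those of acu02779_1 and acu05768_1, both in BCC56535 in glucose on day 3, replicate A. There acu02779_1 had 525, and its replicate B had 793, while its other 22 libraries ran from 699.9 to 1266. acu05768_1 had 967 in that library and 1480 in replicate B, with 1417 to 2333 elsewhere. Both were 0.885 and 0.83 log2 units below their own means there, the only library under 1000 for acu05768_1.

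The largest SD between replicates belonged to acu00312_1, at 0.25, and to acu05829_1, at 0.231. acu00312_1 had 13160 and 21948 in BCC199 in glucose on day 3, and 15518 and 15420.3 in the same strain in wheat bran-soybean on that day. The smallest belonged to acu05582_1, at 0.075, and acu05457_1, at 0.0816. acu05457_1 showed a difference between groups that its replicates shared. It had 5297 and 5505 in BCC56535 in wheat bran-soybean on day 3, above every other library, where values ran from 2986 to 4628. Across groups, the SD of the difference between replicates over the 200 IDs was between 0.0822, in BCC199 in wheat bran-soybean on day 3, and 0.327, in BCC56535 in glucose on day 6.

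By the same rule, 200 IDs were also chosen in some of the libraries, and their spread was read in the libraries left over. These lists are not the steady IDs and share only a part of them, so their spread describes the rule. Chosen in the 12 libraries of replicate A, 200 IDs had a median SD of 0.268 in the replicate B libraries, against 0.709 for the other IDs of sufficient level, and 151 of them were steady IDs. Chosen in replicate B, 200 IDs had 0.289 in the replicate A libraries against 0.747, with 147 shared. The replicates of a group share strain, medium and day, so this asks least of the IDs.

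The SD within an unused strain holds no difference between strains, while the SD in the other 2 strains does, so these are not alike and the shift in mean level is given with them. With BCC56535 left out of the choice, the chosen IDs had a median SD of 0.309 in its libraries and 0.1997 in the libraries used, against 0.536 for the other IDs in BCC56535. With HUT2365 left out, they had 0.258 in its libraries and 0.218 in those used, against 0.456 for the other IDs in HUT2365. With BCC199 left out, these were 0.231 and 0.229, against 0.429. The mean level of the chosen IDs in the unused strain lay a median of 0.25 log2 units from that in the other strains for BCC56535, 0.25 for HUT2365 and 0.32 for BCC199, against 0.46, 0.48 and 0.55 for the other IDs. Chosen in wheat bran-soybean, they had 0.305 in glucose and 0.208 in wheat bran-soybean, against 0.552 for the other IDs in glucose. Chosen in glucose, they had 0.340 in wheat bran-soybean and 0.177 in glucose, against 0.659 for the other IDs in wheat bran-soybean. In each of the 7 choices the chosen IDs thus had a smaller median spread in the unused libraries than the other IDs, as the plot of unused libraries shows. Sufficient level was judged in the libraries used for the choice alone, so IDs of either set could be low in the unused ones. The contrast is a description, and nothing is read from it for the steady IDs.

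**Figure D5:**
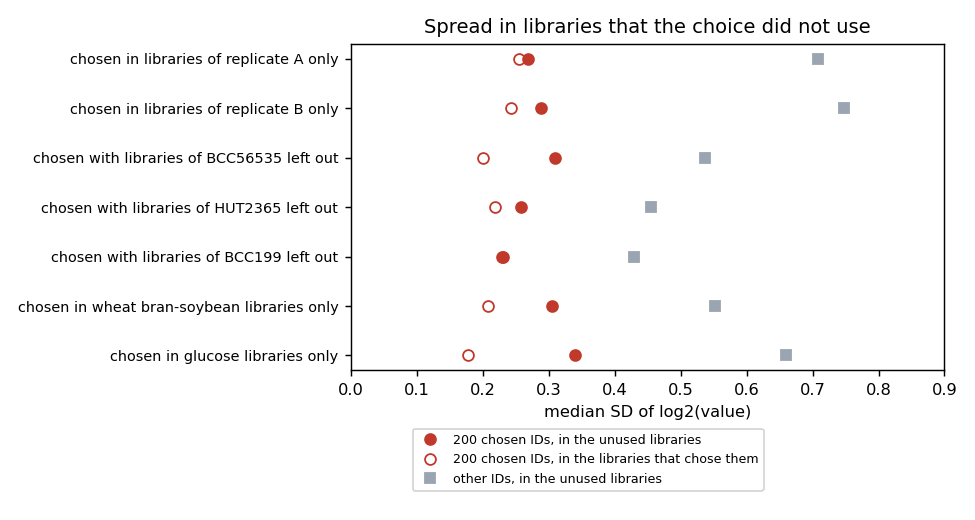
For 7 choices of 200 IDs in a part of the libraries, the horizontal axis gives the median SD of log2(value) of the chosen IDs in the unused libraries (filled red) and in the libraries that chose them (open red), and of the other IDs in the unused libraries (grey squares). Filled points lie between 0.231 and 0.340, and squares between 0.429 and 0.747.

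IDs chosen for a small spread inside one condition included some with another level outside it. Of 200 IDs chosen in glucose alone, 80 were steady IDs, and the mean level shifted between the media by a median of 0.25 log2 units, against 0.43 for the other IDs. For 4 of the 200 the shift was over 1. The largest was that of acu03367_1, singled out after its values were seen, with a lowest, median and highest of 10.3, 32.1 and 104 in wheat bran-soybean and 25426, 30421 and 34833 in glucose. Its SD of log2(value) within glucose was 0.147. Within the same glucose libraries, steady IDs lay on both sides of that value, for instance acu05457_1 at 0.0855 and acu00407_2 at 0.239. Chosen in wheat bran-soybean alone, 87 of the 200 were steady IDs and 6 shifted by over 1. acu05024_1 shifted most, with 403, 585 and 724 in wheat bran-soybean and 6556, 11569 and 13513 in glucose.

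The same held between strains. With HUT2365 left out of the choice, acu00009_2 had 15.1, 23.5 and 33.2 in the 8 libraries of HUT2365 against 458, 523 and 778 in the 16 libraries of the other strains. With BCC56535 left out, acu03875_1 had 329, 713 and 959 in BCC56535 against 2699, 4438 and 4758 elsewhere. With BCC199 left out, acu03561_1 had 436, 538 and 670.4 in BCC199 against 1296, 1670.5 and 2269 elsewhere. These 3 IDs were singled out for their shifts, the largest of each choice. Shifts over 1 were made by 12, 12 and 8 of the 200 IDs in that order, and the lists shared 98, 99 and 101 IDs with the steady IDs. A difference between strains may include a fixed difference in how reads were assigned to an ID, which was not tested.

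The form of the IDs, which the rule did not use, is a number prefix and a member number, and the meaning of the prefix is not stated in the labels or the table. Of the 200 steady IDs, 9 (4.5%) shared their prefix with another deposited ID, against 9.91% of the other IDs of sufficient level. A prefix number under 1000 was found for 12 steady IDs (6.0%) and 14.3% of the others. A member number of 1 was found for 97.0% and 94.5%. These shares rest largely on the same IDs and are not separate results. All 9 steady IDs with a shared prefix had a prefix number under 1000. Every steady ID with a member number other than 1 was among those 9. The differences in share were not tested. acu00140_2 and acu00140_3 were both steady, the only pair with a common prefix. The other 12 IDs of the prefixes that steady IDs shared had SDs from 0.304 to 1.02, with a median of 0.469. Reads may be divided among IDs of a prefix, which was not tested. The values of those 9 steady IDs, acu00407_2 and acu00312_1 above among them, are to be read with that limit.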

How the data were processed

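RNA of 24 libraries was measured by sequencing. The submitters' processing notes name the tools HISAT2 2.1.0, StringTie and Picard. Not given in the sources used here are the genome build, annotation, counter, strand use and normalization tool. The deposited table holds a normalized read signal for 8615 IDs. With the constant of 1 taken off, 100.0% of a library's values were whole multiples of its step (within 0.02 of a step), and the factors matched median-of-ratios factors within 0.0834%.

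The steady IDs and the naming rule were chosen with earlier results of these data known. The rule named the 5 smallest SDs, the 2 IDs at each side of the limit, the 2 highest and 2 lowest means, the extreme differences (2 each way for medium, 1 for each strain pair and day), the 2 largest single-library distances, and the 2 largest and 2 smallest replicate SDs. Other names are marked where they stand.

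Limma 3.58.1 (R 4.3.3) was fitted for this work to log2(deposited value + 1), all 24 libraries in 12 group means, with an intensity trend. IDs were kept if 2 or more libraries reached a value of 10, which left 8509 with all 200 steady IDs and dropped 106. Contrasts were two-sided, with Benjamini-Hochberg adjustment over 8509 IDs. The fit was also run on simulated reads with a common dispersion and a medium change in 200 IDs, without strain or day effects. These settings are simpler than the data, and no result of that run is used here. Levels are deposited values. For the closest replicates the median over IDs of the chi-square was 2.01. Each library counted separately in the fit, and the chi-square cannot show whether replicates were separate cultures. Python 3.11.15, numpy 2.4.6 and pandas 2.3.3 were used. Alternatives were other scalings (library totals, trimmed means, quantile normalization), pseudocounts 0.5 and 10, no filter, voom weights on recovered reads, a replicate block, other spread measures and level limits (100 and 1000), and libraries left out. The planned pseudocount of 1 was added although the deposited values already hold a constant of 1.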

Additional observations from a re-analysis of the deposited data

Results flagged for a closer look

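Among the 200 steady IDs, 78 had a medium effect that differed between strains by the moderated F test of the interaction (limma, adjusted over all 8509 IDs), where 73.4% of all IDs passed. The count ran from 56 to 87 when single libraries were left out. The IDs were chosen on the same libraries, so the count is a description.

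In 13 steady IDs every library of a strain moved one way with the medium and every library of another strain the opposite way. The same held for 10.6% of all 8509 IDs. The difference was not tested. Of these, 6 were higher in wheat bran-soybean in BCC199 and lower in HUT2365, and 4 were higher in HUT2365 and lower in BCC199. The other 3 involved BCC56535: acu05933_1, acu05187_1 and acu06898_1.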

How the results depend on the processing

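The list of 200 kept 109 IDs when the median absolute deviation replaced the SD. It kept 99, 98 and 101 when BCC56535, HUT2365 or BCC199 was left out, 87 with wheat bran-soybean only and 80 with glucose only. In the other 11 changes of scaling, spread measure, level limit or replicate it kept 144 (range of log2 values) to 198, among them 147 and 151 with replicate B or A only and 152 with scaling by library totals, and between 175 and 194 without 1 library. The lowest was reached without BCC56535 glucose day 6 replicate A and without HUT2365 wheat bran-soybean day 3 replicate B.

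Without 1 library, passing steady IDs ran from 65 to 90 for medium, 63 to 88 for BCC56535 against BCC199, 65 to 86 for HUT2365 against BCC199, 53 to 69 for BCC56535 against HUT2365, 4 to 22 for day and 56 to 87 for the interaction. Over all 8509 IDs tested, 5648 to 5945 passed for medium and 1661 to 2359 for day. For the strain pairs in the same order, 6048 to 6358, 6087 to 6423 and 5775 to 6107 of all IDs passed. Quantile normalization gave 22 for day; the cause was not tested. Other alternatives stayed within 1.5 times the count. The 12 differences named for medium, strain pair or day kept their direction in every alternative and without any 1 library. Whether each of them stayed on its side of the threshold was not followed.

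Whether the letters A and B pair libraries of different groups is not known. Over 66 pairs of groups, the correlation of same-letter deviations ran from -0.429 to 0.219 (median 0.0144), and 11 were over 0.1. These correlations cannot show whether libraries of different groups were handled together. With the replicate block, 81 steady IDs passed for medium, 76, 77 and 61 for the strain pairs in the order above, 10 for day and 75 for the interaction. Over all IDs tested, 5866 passed for medium, 6292, 6339 and 6041 for the strain pairs and 2037 for day.

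Depth limited little, since the fewest reads of a steady ID in a library were 290. Lengths and names of the IDs were not analysed here.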
